A study of Mus musculus with 9 samples.

Results

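Of the 12949 differentially methylated regions (DMRs) listed between MMS and control hypothalamus, 837 lay in genes annotated as those of long noncoding RNAs (lncRNAs). A DMR was counted here when its centre fell inside an autosomal lncRNA gene body of GENCODE vM21 (types lincRNA, antisense, processed transcript, sense intronic or bidirectional promoter lncRNA) and inside no protein-coding gene body. The choice used position alone and no methylation value. The autosomes carried 12845 DMRs in all, of which 6316 were centred in protein-coding gene bodies and 5692 in neither kind of gene. All mice were male C57/Bl6 pups. Modified maternal separation (MMS) kept pups away from the dam for 1.5 h a day from postnatal day 4 to postnatal day 6, during which they lay on a heating pad and were turned onto their backs each time they rolled over. Control pups were littermates that were not separated. The hypothalamus was taken on day 6, and DNA from 10 animals per group was combined into 3 pools per group. Each pool gave 1 methylated DNA immunoprecipitation (meDIP) library, made with an antibody against methylated cytosine, so that reads over a region increase with its methylation and its number of CpG sites. The table holds the mean of normalised reads over each group on the log2 scale and no value per library, so values below are the authors' group means and carry no spread. For the same reason no test between groups could be made here, and every DMR in the table had already passed the authors' own test. Whole hypothalamus holds many cell types, and a different mix of cells and a different methylation within cells cannot be told apart.

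lncRNAs are transcripts longer than small RNAs that carry no long open reading frame. Many are nuclear, and some act on the gene next to them, through the act of transcription or through proteins that the RNA recruits, whereas others are hosts from which microRNAs are cut. In the brain they are known for expression that is restricted to certain regions and cell types, and many lie beside genes for developmental transcription factors. CpG methylation at their start sites is associated with silence, as at protein-coding genes, whereas gene bodies of transcribed genes are usually methylated.

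The sequences below are read from the plus strand of GRCm38 (mm10), with CpG dinucleotides, the sites at which methylation is mostly found, in capitals. The first set shows DMRs with and without CpG sites in Sox2ot, and DMRs in other lncRNA genes described below. It comprises a whole DMR in Sox2ot with 5 CpG sites (chr3:34628881-34629151), the middle of another Sox2ot DMR that has none (chr3:34376002-34376152), and whole DMRs in Gm14005 (chr2:128235575-128235837), Mir99ahg (chr16:77355364-77355576) and Lncpint (chr6:31124508-31124688). In each of them MMS had the higher mean.
Sox2ot with CpG: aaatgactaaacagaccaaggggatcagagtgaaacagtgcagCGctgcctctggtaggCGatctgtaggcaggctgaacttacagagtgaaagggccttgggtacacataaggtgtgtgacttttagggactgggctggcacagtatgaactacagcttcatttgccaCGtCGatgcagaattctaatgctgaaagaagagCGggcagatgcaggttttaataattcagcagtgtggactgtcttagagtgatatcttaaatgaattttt
Sox2ot without CpG: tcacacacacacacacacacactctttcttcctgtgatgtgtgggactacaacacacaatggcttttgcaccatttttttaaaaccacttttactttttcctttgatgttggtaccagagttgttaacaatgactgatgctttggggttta
Gm14005: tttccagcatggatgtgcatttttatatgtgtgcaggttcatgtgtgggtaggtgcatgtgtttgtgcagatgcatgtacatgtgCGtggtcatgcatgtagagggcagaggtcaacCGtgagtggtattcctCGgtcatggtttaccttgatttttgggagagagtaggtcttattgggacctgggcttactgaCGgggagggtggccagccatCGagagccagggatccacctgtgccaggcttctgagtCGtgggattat
Mir99ahg: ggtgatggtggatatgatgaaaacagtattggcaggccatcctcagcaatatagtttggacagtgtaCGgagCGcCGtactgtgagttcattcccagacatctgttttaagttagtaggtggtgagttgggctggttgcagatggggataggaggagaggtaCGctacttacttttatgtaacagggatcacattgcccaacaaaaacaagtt
Lncpint: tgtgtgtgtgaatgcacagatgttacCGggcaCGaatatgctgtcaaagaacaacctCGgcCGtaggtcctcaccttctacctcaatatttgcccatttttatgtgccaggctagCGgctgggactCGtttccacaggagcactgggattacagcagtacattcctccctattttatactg
The second set gives DMRs that span the annotated start of a lncRNA transcript, in Rbm46os (chr3:82876644-82876930) and Gm3234 (chr12:107484115-107484372), with 6 and 8 CpG sites. Both were higher in MMS.
Rbm46os: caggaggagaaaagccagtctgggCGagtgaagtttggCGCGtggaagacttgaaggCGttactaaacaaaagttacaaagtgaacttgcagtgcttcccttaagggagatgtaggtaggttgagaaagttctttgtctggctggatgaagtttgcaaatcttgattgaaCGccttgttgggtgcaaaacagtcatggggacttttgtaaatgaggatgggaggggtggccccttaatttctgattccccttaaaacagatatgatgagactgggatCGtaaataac
Gm3234: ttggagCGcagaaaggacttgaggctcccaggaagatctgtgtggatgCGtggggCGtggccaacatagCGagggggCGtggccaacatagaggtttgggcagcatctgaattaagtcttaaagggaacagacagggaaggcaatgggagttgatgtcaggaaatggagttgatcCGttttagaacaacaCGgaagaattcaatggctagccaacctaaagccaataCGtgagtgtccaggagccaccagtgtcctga
The third set contrasts a DMR with the higher mean in control, in Gm47071 (chr13:55911075-55911226) with 2 CpG sites, with one of the DMRs densest in CpG, in AC134555.1 (chr17:83042851-83043074), which has 12 in 224 bp and was higher in MMS.
Gm47071: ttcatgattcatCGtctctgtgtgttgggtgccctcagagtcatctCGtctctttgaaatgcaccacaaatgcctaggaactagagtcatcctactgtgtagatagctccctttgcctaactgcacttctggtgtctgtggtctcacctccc
AC134555.1: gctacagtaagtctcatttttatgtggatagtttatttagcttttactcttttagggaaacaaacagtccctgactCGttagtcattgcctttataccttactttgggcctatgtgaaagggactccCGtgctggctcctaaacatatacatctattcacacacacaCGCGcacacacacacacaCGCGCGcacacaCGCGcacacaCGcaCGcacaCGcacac

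Of the 837 DMRs in lncRNA genes, 513 (61.3%) were higher in MMS and 324 (38.7%) higher in control, by the group means. Over all autosomal DMRs 62.4% were higher in MMS and 37.6% higher in control, so the split in lncRNA genes lay close to that of the whole table. It was 61.8% higher in MMS in protein-coding gene bodies and 63.1% outside both kinds of gene. The size of the differences was also alike. DMRs higher in MMS differed by a median of 3.49 on the log2 scale, MMS minus control, beside 3.43 over all autosomal DMRs, and those higher in control by a median of -1.69 beside -1.73. A difference of at least 2 on the log2 scale was seen in 570 of the 837 (68.1%), beside 69.7% over all. Of those, 460 were higher in MMS (55% of the 837, beside 56.1%) and 110 higher in control (13.1%, beside 13.6%).

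The 2 directions started from unlike levels. In DMRs higher in MMS the median group means were -0.17 in control and 4.18 in MMS, which correspond to 0.889 and 18.1 normalised reads. In DMRs higher in control they were 5.18 in control and 3.44 in MMS, or 36.3 and 10.8 normalised reads. The value -0.17 is the lowest control mean in the table, and -0.24 is the lowest MMS mean. Of the DMRs higher in MMS, 280 had a control mean no more than 0.5 above this lowest value, or 33.5% of the 837 (32.8% over all autosomal DMRs) and 54.6% of those higher in MMS. Of the DMRs higher in control, 13 (4.01%) had MMS as near to its own lowest value, beside 4.61% over all autosomal DMRs. The size of a difference measured against a lowest value depends on where that value was set. With DMRs at a lowest value left out, 544 remained and 233 of these (42.8%) were higher in MMS, beside 45.1% over all autosomal DMRs treated in the same way. Where both groups had more than 10 normalised reads, 173 of 206 DMRs (84.0%) were higher in control, beside 83.3% over all autosomal DMRs with such coverage.

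**Figure D1:**
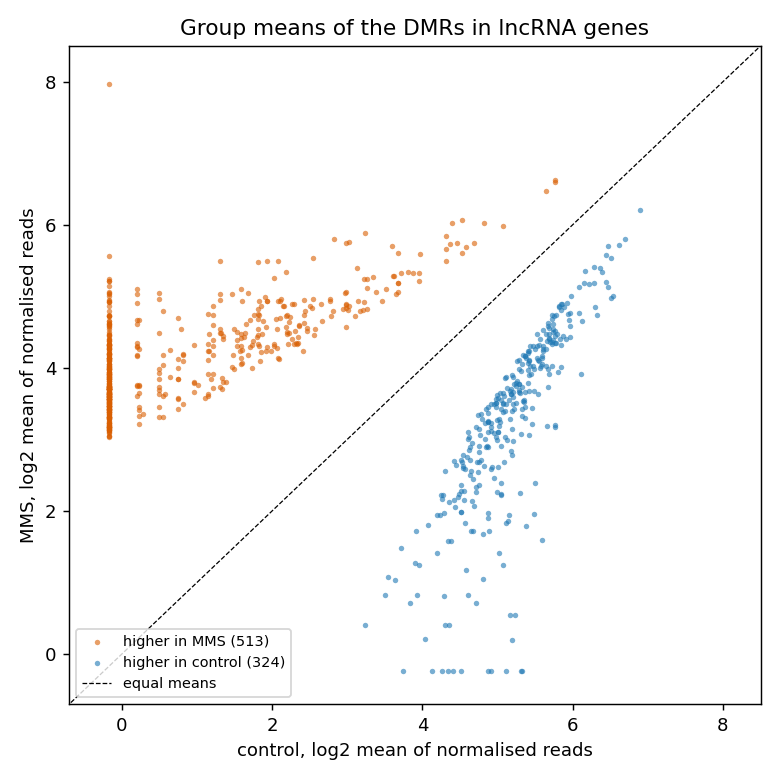
Each point is 1 of the 837 DMRs in lncRNA genes, placed by the authors' log2 mean of normalised reads in control (x axis) and in MMS (y axis); orange points were higher in MMS (513), blue points higher in control (324), and the dashed line marks equal means. The column of orange points at the left edge holds DMRs whose control mean was at its lowest value, -0.17.

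Most DMRs in lncRNA genes were intronic. The centre lay in a lncRNA exon in 65 (7.77%) and in an intron in 772. lncRNA gene bodies outside protein-coding genes span 145 Mb of the autosomes, which gives 5.77 DMRs per Mb, beside 6.38 per Mb in protein-coding gene bodies and 4.52 per Mb outside both. Exonic sequence of lncRNA genes had 6.45 DMRs per Mb and intronic sequence 5.72. Of the 65 exonic DMRs 36 (55.4%) were higher in MMS, and of the 772 intronic ones 477 (61.8%). Exonic DMRs had more CpG, with a median of 1.56 per 100 bp, than intronic ones with 1.23. The centres were spread along the genes, with 186, 188, 165, 142 and 156 DMRs in 5 successive parts of equal length from the start of the gene to its end. Of these 115, 120, 102, 89 and 87 were higher in MMS.

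The DMRs were divided among the gene types as follows. lincRNA genes, which lie between other genes, held 581 DMRs, antisense genes 147, genes of the type processed transcript 98 and bidirectional promoter lncRNA genes 11, where a DMR in overlapping lncRNA genes is given to the longest. A DMR lay in 522 of 5209 lincRNA genes, in 130 of 2913 antisense genes (4.46%) and in 69 of 753 processed transcript genes (9.16%), beside 7.77% of all lncRNA genes. None of the 327 sense intronic genes held one, but these lie inside introns of other genes, and the rule leaves out DMRs in protein-coding gene bodies. The same rule leaves out antisense genes where they overlap a protein-coding gene. In processed transcript genes 69.4% of DMRs were higher in MMS, in lincRNA genes 60.1% and in antisense genes 60.5%. These shares were not tested against each other. Genes were counted by their annotated type, and some processed transcript genes bear the names of protein-coding genes. Among them were Zswim6 and Tctn2 with 2 DMRs each, and Trerf1 and Muc19 with 1 each.

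**Figure D2:**
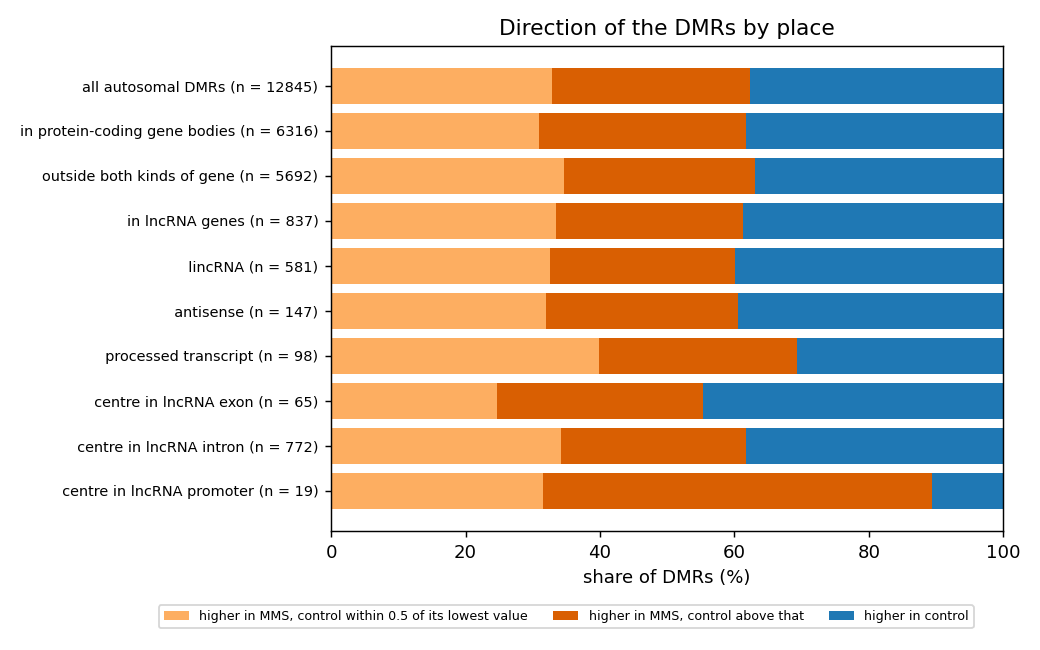
Horizontal bars give the share of DMRs (x axis, %) that were higher in MMS with control within 0.5 of its lowest value (light orange), higher in MMS with control above that (dark orange) or higher in control (blue), with the number of DMRs in brackets. The bars for lncRNA genes, protein-coding gene bodies and DMRs outside both lie close to one another, and the bar for lncRNA promoters, with 19 DMRs, stands apart with 17 higher in MMS.

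Few of the 837 DMRs lay at lncRNA start sites, and their number per Mb of promoter was not computed. With promoters taken as the 1000 bp before and the 100 bp after any lncRNA transcript start, 19 DMRs were centred in one, and 17 of these (89.5%) were higher in MMS. The stretch before the first start of a gene lies outside its body, and DMRs there are not among the 837. Of the DMRs centred in a lncRNA promoter but outside any lncRNA or protein-coding gene body, 15 of 29 (51.7%) were higher in MMS, and over both kinds together it was 32 of 48 (66.7%), near the 62.4% of all autosomal DMRs. An annotated lncRNA transcript start lay within the region itself in 26 DMRs, of which 19 (73.1%) were higher in MMS. These were wide, with a median of 1020 bp, and had 1.98 CpG per 100 bp.

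Among those with the largest differences, the following 4 had control at its lowest value of -0.17. Over the start of 4930433N12Rik the MMS mean was 5.09 higher on the log2 scale, at 4.92 (chr9:3198701-3199851). The MMS mean was 3.95 for A630023P12Rik, 3.42 for Gm3234 and 3.41 for Gm36843. The DMR over the start of Rbm46os, antisense to the gene of the RNA-binding protein Rbm46, had means of 0.50 in control and 3.73 in MMS. The sequences over the starts of Rbm46os and Gm3234 are printed above. Of the 19 DMRs in promoters, those in Gm33222 (6.22 in control, 5.17 in MMS) and Gm49797 (4.95 and 3.09) were the ones higher in control. These 2 genes were named after their values were seen.

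Among 9392 autosomal lncRNA genes, 730 (7.77%) held the centre of at least 1 DMR. The share increased with gene length, from 2.05% of genes under 10 kb to 10.6% of genes of 10 to 50 kb, 24.9% of genes of 50 to 100 kb and 49.9% of genes over 100 kb. Genes with a DMR had a median length of 38.7 kb, beside 6.75 kb for all. Longer genes offer more bases in which a centre can fall, and the shares are not corrected for this. A single DMR was found in 605 genes, 2 in 103 genes and 3 or more in 22. Of the 125 genes with 2 or more, 61 (48.8%) had DMRs of both directions, 48 had all of theirs higher in MMS and 16 all of theirs higher in control.

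Sox2ot held the most DMRs, 8 over 578 kb (chr3:34104270-34682619, plus strand, ENSMUSG00000105265.4). This gene overlaps Sox2, the transcription factor of neural stem cells, which lies within an intron of it, and its transcripts are known from the embryonic and adult brain. The centres of all 8 DMRs were intronic and 6 were higher in MMS. Nearest the start of the gene were 3 DMRs with control above its lowest value. Their means were 2.77 in control and 4.94 in MMS at 50.1 kb from the gene start, 2.23 and 4.64 at 59.9 kb, and 3.26 and 5.24 at 112 kb. The differences of these 3 DMRs, 2.17, 2.41 and 1.98, thus lay close together. Next came a DMR higher in control at 207 kb, with 5.2 in control and 3.90 in MMS, over 11 CpG sites in 408 bp. It lies within both Sox2ot and Gm38505.

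In the middle of Sox2ot control was at its lowest value in a pair of DMRs. Their MMS means were 3.05 at 272 kb and 3.18 at 281 kb. The first of these contains 0 CpG sites in 613 bp, and its middle is printed above. The region is repeat over 39.3% of its length, and the source of its reads was not tested. Close to Sox2, the last pair of DMRs lay 473 bp apart and had opposite directions. The wider one (chr3:34627150-34628407), 22627 bp from a start of Sox2, had means of 6.47 in control and 5.13 in MMS. The narrower one (chr3:34628881-34629151), 21389 bp from it, had 0.50 in control and 3.63 in MMS. The wider DMR thus differed by -1.34 and its neighbour by 3.13, MMS minus control on the log2 scale. Of the 8 Sox2ot DMRs, 7 aligned to no other place in the genome over at least 100 bp at 95% identity, and the one without CpG had a single other match of 101 bp.

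**Figure D3:**
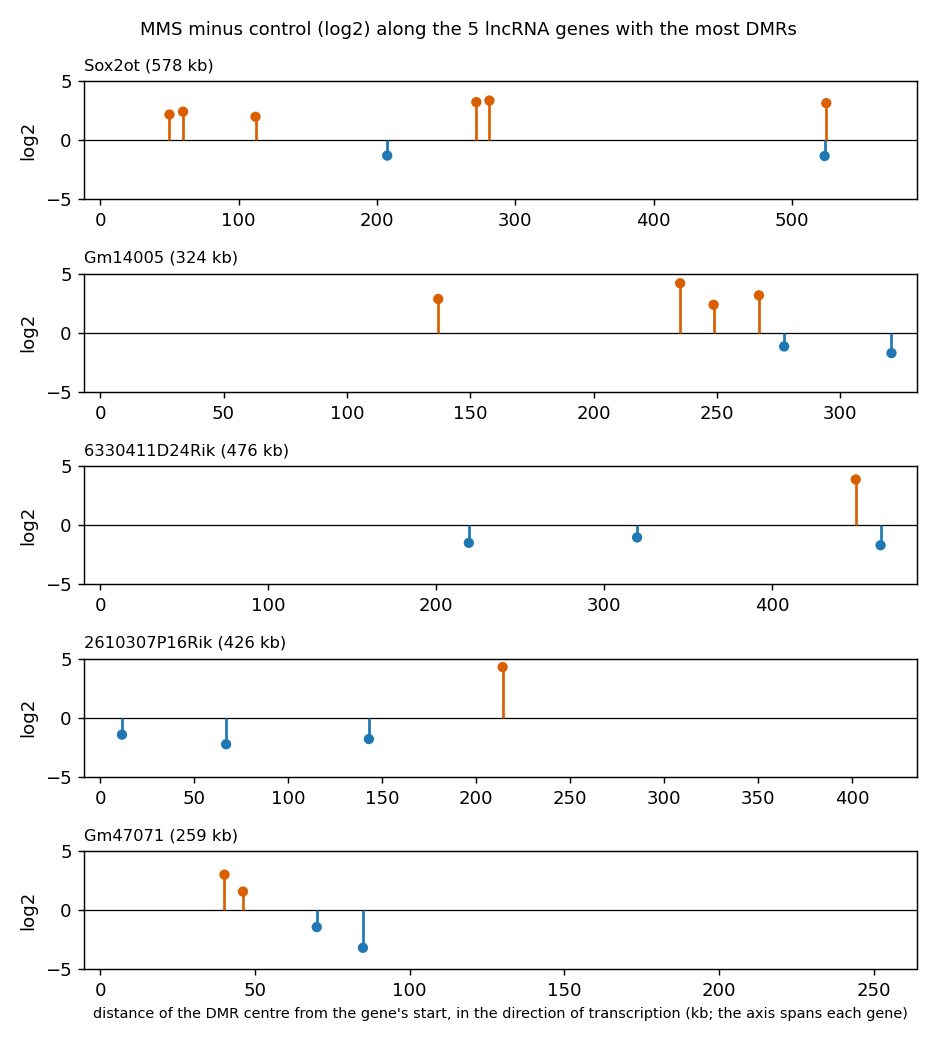
Each panel is 1 of the 5 lncRNA genes with the most DMRs, with the distance of each DMR centre from the gene's start on the x axis (kb, along the direction of transcription) and its log2 difference, MMS minus control, on the y axis; orange is higher in MMS and blue higher in control. All 5 genes hold DMRs of both directions, with 6 of 8 higher in MMS in Sox2ot and 1 of 4 in 6330411D24Rik and in 2610307P16Rik.

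Gm14005 held 6 DMRs over 324 kb (chr2:128178319-128502765, minus strand, ENSMUSG00000074813.13). It is also known as Morrbid, a lncRNA described in myeloid cells that acts on the nearby Bcl2l11, the gene of the pro-apoptotic protein Bim. The 4 DMRs nearest its start were higher in MMS. Their means were 2.08 in control and 4.93 in MMS at 137 kb, -0.17 and 4.01 at 235 kb, 2.50 and 4.86 at 249 kb, and 2.18 and 5.34 at 267 kb. Toward its end, where the gene approaches Bcl2l11, the other two were higher in control, with 5.64 in control and 4.48 in MMS at 277 kb, and 5.21 and 3.49 at 321 kb. The last of these, 53842 bp from a start of Bcl2l11, is repeat sequence over 85.6% of its length and has 11 alignments elsewhere, the longest of 180 bp. The DMR at 249 kb, 3010 bp wide, has 1499 alignments elsewhere of up to 210 bp, so parts of these regions can take reads from other places.

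The other 3 genes of the 5 with the most DMRs held 4 each, and were taken ahead of others with 4 for their length. In 2610307P16Rik (426 kb), whose DMRs have as their nearest protein-coding start that of Sox4, the gene of a transcription factor of developing neurons, the 3 DMRs nearest the gene start were higher in control. Their means were 5.87 in control and 4.44 in MMS at 11.6 kb, 5.31 and 3.07 at 67 kb, and 5.35 and 3.55 at 143 kb, and the fourth had -0.17 and 4.11 at 214 kb. The one at 67 kb has 691 alignments elsewhere of up to 114 bp. In 6330411D24Rik (476 kb) 3 of the 4 DMRs were higher in control with differences of -1.03, -1.49 and -1.69 and neither group was at its lowest value there. The fourth, with -0.17 in control and 3.70 in MMS, lies between those at 320 kb and 465 kb. In Gm47071 (259 kb), an antisense gene whose nearest protein-coding start is that of the pituitary and hindlimb factor Pitx1, the 2 DMRs nearest the start were higher in MMS, by 3.01 and 1.58. The first of them has 2087 alignments elsewhere of up to 114 bp. The next 2 were higher in control, with differences of -1.42 and -3.17, so that direction changed once along the gene. The narrow DMR with -3.17, 152 bp with means of 4.89 and 1.72, is printed above.

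Known lncRNAs were taken from lists of named genes. Over the 5 lists together, 28 DMRs lay in 17 genes, of which 22 were higher in MMS and 6 higher in control, where 62.4% of all autosomal DMRs were higher in MMS. These lists were written with earlier results of these data known, and no test was made on them. None of the 12 imprinted lncRNA genes, among them Meg3, H19, Kcnq1ot1, Airn and Snhg14, held a DMR centre by this rule, where 7.77% of all lncRNA genes did. Of these genes only the listed DMRs are known here, so a region that missed the authors' threshold would not be seen. A DMR centred where an imprinted lncRNA gene overlaps a protein-coding gene body is not counted either.

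Among 29 genes listed here as hosts of small RNAs, Pvt1 and Mir99ahg held DMRs, which is 6.90% beside 7.77% of all lncRNA genes. C130071C03Rik, a further host with a DMR, was listed with the developmental genes below. Pvt1, the neighbour of the Myc oncogene, held 3, with means of -0.17 in control and 4.09 in MMS at 39.9 kb from its start, 3.24 and 5.89 at 91.2 kb, and 1.15 and 4.34 at 241 kb. All 3 were higher in MMS. The first of these has 193 alignments elsewhere of up to 123 bp, and the other two none. Mir99ahg, from which the microRNAs miR-99a, let-7c and miR-125b are cut, held 2, with means of 1.81 and 4.69 at 65.7 kb and of 1.75 and 4.38 at 119 kb. The differences of the pair, 2.88 and 2.63, were alike, and both regions aligned to themselves alone.

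Of 20 lncRNA genes with roles in neural or general development, 3 (15%) held DMRs, beside 7.77% of all lncRNA genes. Genes in these lists were not matched in length to the rest. Beside the 8 in Sox2ot, C130071C03Rik, a lncRNA gene whose DMR lies 190803 bp from the nearest start of the neuronal transcription factor gene Mef2c and host of a miR-9 hairpin, had means of -0.17 in control and 3.84 in MMS. It is repeat over 67.6% of its length and has 86 alignments elsewhere of up to 158 bp. Rmst, a lncRNA of neurogenesis that binds Sox2, had 1 DMR higher in control, with means of 4.92 and 3.17 over 215 bp. Among 10 general nuclear or regulatory lncRNAs, 3 genes (30%, beside 7.77% of all lncRNA genes) held 4 DMRs. All 4 were higher in MMS, where 62.4% of all autosomal DMRs were. The DMR in Neat1, the scaffold of paraspeckles, lay in an exon and had 2.98 in control and 4.57 in MMS, with 18 partial alignments elsewhere. Lncpint, a target of p53, had 1 DMR with 0.75 and 3.57 and another with -0.17 and 3.93. Crnde, the neighbour of the transcription factor gene Irx5, had -0.17 and 4.14. Malat1 and Tug1 held none.

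lncRNA genes named after a protein-coding gene that they oppose or overlap numbered 285, of which 10 (3.51%) held DMRs, beside 7.77% of all lncRNA genes. A DMR centred where such a gene overlaps a protein-coding gene body is not counted by the rule used here. Beside Sox2ot and Rbm46os these included Tspan2os (-0.17 in control, 3.38 in MMS) and Gldnos (0.20 and 4.35). Junos, beside the immediate early gene Jun, had 1.82 and 4.83, at 18601 bp from a start of Jun. Higher in control were the DMRs in Prox1os (4.63 and 2.51), Tbx3os1 (5.24 and 3.51) and Hnf1aos1 (5.56 and 4.40), opposite the genes of 3 transcription factors, of which Prox1 is known from neurogenesis. Fcnaos (2.35 and 4.43) and Zmiz1os1 (0.29 and 3.36) were higher in MMS.

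**Figure D4:**
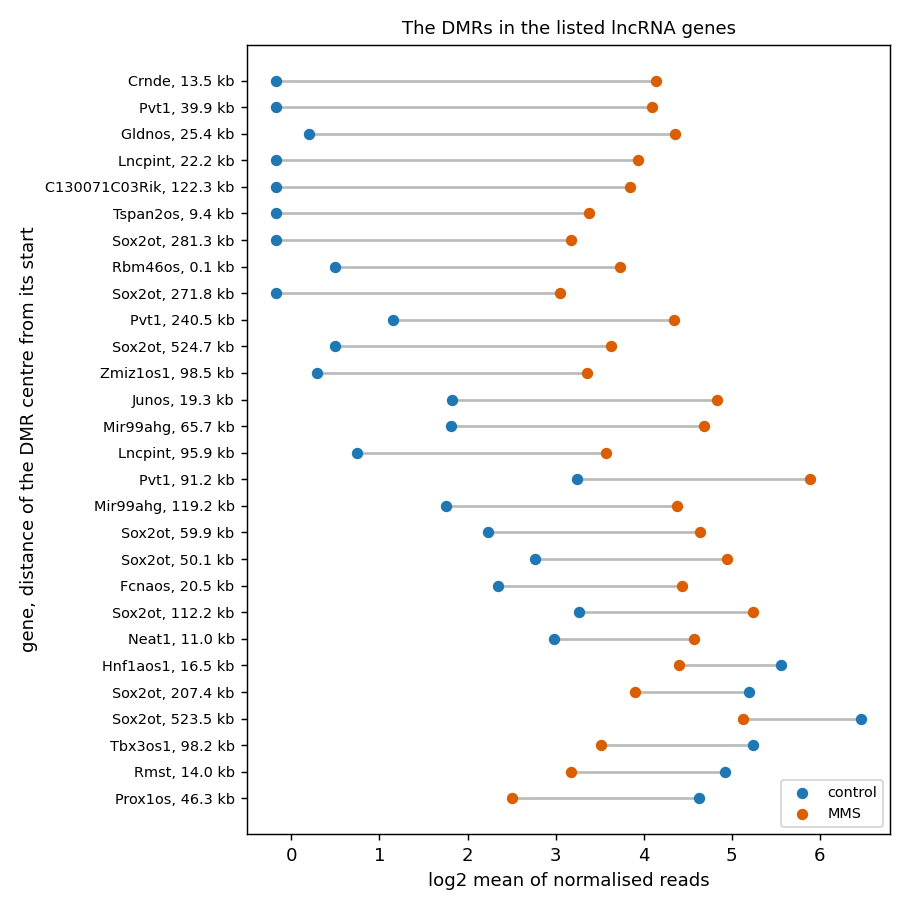
Each row is 1 of the 28 DMRs in the listed lncRNA genes, labelled with the distance of its centre from the gene's start (kb), and the x axis gives the authors' log2 mean of normalised reads in control (blue) and MMS (orange). The 6 rows at the bottom were higher in control, where both means lie above 2.5, and in the 22 above them the control mean is the lower one.

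The largest difference of all belonged to a DMR of 265 bp in Gm33838, with -0.17 in control and 7.97 in MMS. This DMR is wholly repeat and has 12 alignments elsewhere on the assembled chromosomes, 8 of them over at least 90% of it. Next were 2810414N06Rik, Gm31641, 4933432I09Rik and Gm26870, with control at -0.17 and MMS means of 5.57, 5.24, 5.22 and 5.22. The first of these lies 1425 bp from a start of Edem3, the gene of a mannosidase of the endoplasmic reticulum, and is 687 bp wide with 16 CpG sites. It aligned nowhere else. The last lies at the very start of the assembled chromosome 9 (chr9:3000122-3004810), is 96.6% repeat and has 18 alignments elsewhere.

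The 5 largest differences in the other direction had MMS at its lowest value of -0.24. The control means were 5.32 in Gm14051, 5.31 in Gm2164, 5.12 in Gm40153, 4.92 in Gm6093 and 4.87 in 4933432K03Rik. Their widths were 166 bp, 1065 bp, 196 bp, 444 bp and 181 bp in the same order, so 3 of the 5 were under 200 bp. Each aligned to itself alone. The DMR in Gm40153 has as its nearest protein-coding start, 105930 bp away, that of Tet2, an enzyme that oxidises methylcytosine.

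The best covered DMRs were ranked by the mean of the lower group, which favours DMRs whose group means lie close together. Of those higher in control, Gm43101 had means of 6.89 in control and 6.21 in MMS over 25 CpG sites, a difference of -0.68. 1700084F23Rik had 6.70 and 5.80, Gm20465 had 6.62 and 5.72, Gm10823 had 6.47 and 5.71 and Gm47480 had 6.45 and 5.58. The differences of these 5 ran from -0.68 to -0.90. Of those higher in MMS, AC174800.1 had 5.76 in control and 6.62 in MMS, Gm12963 had 5.76 and 6.60, AC132957.1 had 5.65 and 6.47, 1700041M19Rik had 5.07 and 5.99 and Gm26692 had 4.82 and 6.02. Their differences ran from 0.82 to 1.20. The DMR in Gm47480 has 2199 partial alignments elsewhere, and the other nine aligned to themselves alone.

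DMRs in lncRNA genes had a median of 1.26 CpG per 100 bp, between the 1.43 of protein-coding gene bodies and the 1.22 of DMRs outside both, with quartiles of 0.836 and 1.8. Those higher in MMS had a median of 1.22 and those higher in control 1.30. With under 1 CpG per 100 bp 188 of 282 (66.7%) were higher in MMS, with 1 to 2 it was 227 of 405 (56.0%) and with 2 or more 98 of 150 (65.3%). Over all autosomal DMRs these shares were 69.5%, 59.7% and 58.0%. No CpG site was present in 24 of the 837. The criteria of a CpG island (at least 200 bp, GC content over 50%, observed to expected CpG over 0.6) were met by 2 DMRs in lncRNA genes and by 54 on the autosomes.

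**Figure D5:**
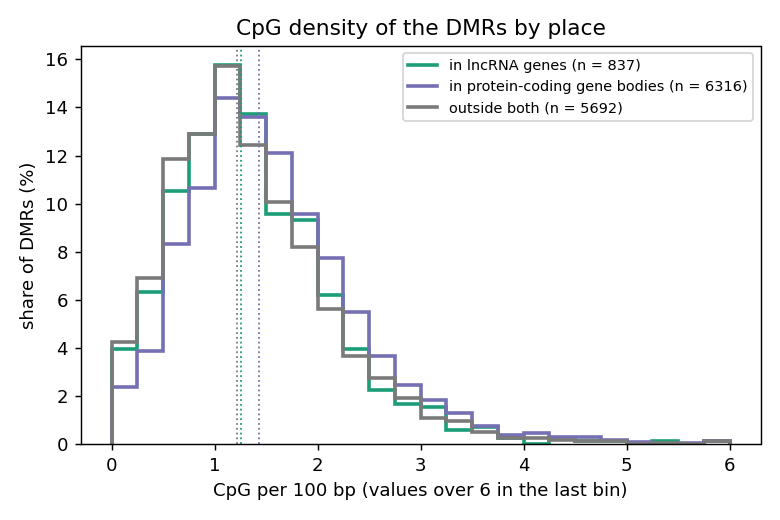
Lines give the share of DMRs (y axis, %) in bins of CpG density (x axis, CpG per 100 bp) for DMRs in lncRNA genes (green), in protein-coding gene bodies (purple) and outside both (grey), with dotted lines at the medians. The green median, 1.26, lies near the grey one, 1.22, and below the purple one, 1.43.

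The densest in CpG were DMRs in Gm33251 (5.77 per 100 bp; 3.92 in control, 1.72 in MMS), AC134555.1 (5.36; -0.17 and 4.29) and Gm5535 (4.80; 6.08 and 5.13). The first is repeat over 88.9% of its length and has 5108 alignments elsewhere. The region in AC134555.1 is printed above and aligned to itself alone. Soft-masked repeat made up a median of 21.2% of DMRs in lncRNA genes, 16.3% in protein-coding gene bodies and 26.5% outside both. Repeat exceeded 90% in 28 DMRs, of which 22 (78.6%) were higher in MMS, beside 78% over all autosomal DMRs of that kind.

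The narrowest DMR in a lncRNA gene had 142 bp and the widest 6396 bp. The median was 588 bp, beside 544 bp over all autosomal DMRs. The widest lay in AI506816 (chr5:23701864-23708259), with 227 CpG sites, 0.75 in control and 4.70 in MMS. There are 3 further copies of 90% or more of it in the genome, and reads from those can fall on it. DMRs over 1000 bp were higher in MMS in 79 of 143 cases (55.2%), and those under 300 bp in 138 of 225 (61.3%). Among those higher in MMS, the control mean was near its lowest in 29.1% of the wide and 68.8% of the narrow ones. Over all autosomal DMRs these shares were alike, at 32.6% and 63.5%, with 56.4% of wide and 61.0% of narrow DMRs higher in MMS.

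Less than 10 kb apart within a gene there were 51 pairs, of which 28 had the same direction and 23 (45.1%) opposite ones. Of 988 such pairs among all autosomal DMRs, in whatever gene, 47.3% were opposite. In Gm49454 3 neighbouring DMRs alternated, with means of -0.17 in control and 3.53 in MMS, then 5.74 and 4.50, then -0.17 and 3.56. In AC134555.1 the same order was seen the other way round, with 5.60 and 4.31, then -0.17 and 4.29, then 5.40 and 4.24. In both genes the DMRs higher in MMS had control at its lowest value, whereas those higher in control were well above it in both groups. All 4 DMRs of Gm31698 were higher in MMS, with differences of 4.08, 3.60, 3.10 and 2.60. Gm49454 and Gm31698, and the other two DMRs of AC134555.1 beside the one printed above, were named after their values were seen.

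Some DMRs in lncRNA genes lay near protein-coding starts. A start of a protein-coding transcript lay within 5 kb of the centre in 53 of the 837, and 40 of these (75.5%) were higher in MMS. Outside both kinds of gene it was 290 of 474 (61.2%) at that distance. From 5 to 100 kb away 264 of 454 (58.1%) were higher in MMS, beside 60.8% outside both, and over 100 kb away 209 of 330 (63.3%), beside 67.5%. The share in lncRNA genes was thus above that outside both within 5 kb and below it in the other distance classes, and none of these differences was tested. The nearest were those of Rbm46os (304 bp from Rbm46), Fcnaos (344 bp from Fcna), Gm11110 (409 bp from Tnfsf9, the gene of a TNF-family ligand) and Gm28577 (508 bp from Serpina11). The means were 0.50 and 3.73 for Rbm46os, and 2.35 and 4.43 for Fcnaos, in control and MMS. For Gm11110 the difference was 4.33 and for Gm28577 it was -2.34, so 3 of these 4 were higher in MMS. Near genes of neuronal signalling, Gm13629 (3660 bp from Scn1a, a sodium channel gene) differed by 3.22 and Gm26783 (2434 bp from Syt2, a calcium sensor of transmitter release) by -3.29. The genes near protein-coding starts were chosen after their values were seen.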

How the data were processed

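MeDIP libraries of 3 control and 3 MMS pools were compared by the authors, beside 1 pooled input per group and an IgG control, for which no separate values were used here. Ion Proton reads had been mapped by the authors with Torrent Suite (mm10). Broad peaks came from MACS2, with the inputs as background, and the authors compared the groups in DiffBind with DESeq2 and with edgeR. The table is named for DESeq2, but its number of rows equals the study's total for edgeR, so which of them chose the listed DMRs is not settled here. The deposited log2 values are means of normalised reads over all libraries and over each group, whose columns, named untreated and treated, were read as control and MMS. Deposited columns of fold change, p-value and FDR hold the authors' own comparison and were not used. The MACS2 genome size was the human setting, which enters the background expected for each peak. The paper also describes normalising to the pooled input of each group and a subtraction with an IgG control. How these steps entered the group means is not given. The depth behind single values is not given.

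Differences are MMS minus control. All regions lay within the GRCm38 chromosomes. The overall mean matched the group means within 0.01. Genes, exons and starts came from GENCODE vM21, and GC, CpG and soft-masked shares from RefSeq GRCm38.p6. Alignments of the 68 named DMRs used BLAST 2.17.0 with a word size of 50, a minimum of 100 bp and 95% identity. They were made against the assembled chromosomes alone, so copies in unplaced or unassembled sequence are not counted. Assignment was tested on simulated regions. Python 3.11.15, numpy 2.4.6, pandas 2.3.3, pysam 0.24.0 and matplotlib 3.10.9 were used. DMRs and gene lists were chosen with earlier results of these data known. Named were the 5 genes with the most DMRs, up to 5 DMRs per gene list (the text gives the others of the lists too), the 5 largest and 5 best covered differences in each direction, the 3 widest, the 3 densest in CpG and the 5 largest at transcript starts, of which 1 is not reported here. The 3 with the most alignments were Gm33251, Gm47480 and Gm47071. With group means alone no test between groups, interval of a difference or removal of a replicate was possible. Shares of DMRs were set against 95% Wilson intervals, which cover counting error only. Start positions are as listed, and can differ by 1 bp from a genome browser.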

Additional observations from a re-analysis of the deposited data

How the results depend on the processing

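No paired analysis was possible because the table holds group means and no value per library, and for the same reason no replicate could be left out. Of 95 alternative values 80 stayed within the counting interval of the main value, or within 1.5 times the main count, and 2 changed direction. Both concern the share higher in MMS, 61.3%, under limits on reads that were chosen after seeing the data. It was 42.8% of 544 DMRs with those at a lowest value left out, and 16.02% of 206 with more than 10 normalised reads in both groups, beside 45.1% and 16.7% over all autosomal DMRs. With a log2 difference of at least 2, 80.7% were higher in MMS, the medians were 3.60 and -2.58 for DMRs higher in MMS and in control, and control was at its lowest value in 60.9% of those higher in MMS. That last share was 49.3% at a width of at least 300 bp, 50.1% exactly at the lowest value and 60.8% within 1 of it. At that width the median of DMRs higher in control was -1.57. Antisense genes alone held 148 DMRs. The share in promoters, 2.27%, was 3.64% by any overlap and 6.69% with promoters from 2000 bp upstream to 500 bp downstream. The median CpG per 100 bp was 1.32 with protein-coding gene bodies kept. The median repeat share was 17.4% where regions of 50% repeat or more were left out. Except for the other definitions of the lowest value and of a promoter, these alternatives themselves change which regions are counted. A limit on the difference also bears directly on the medians of the difference. With 3 pools per group and means alone, no difference between places can be set against the spread between pools.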

Other observations

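DMRs in lncRNA genes were found on all 19 autosomes, from 26 on chromosome 19 to 63 on chromosome 10. The share higher in MMS ran from 43.9% on chromosome 12 (18 of 41) to 77.6% on chromosome 9 (38 of 49), where all DMRs of these chromosomes gave 60.9% and 65.7%. Over single autosomes all DMRs ran from 59.2% to 65.7%, with 383 or more on each, and the spread of the shares in lncRNA genes was not tested. By length of the lncRNA gene, 54 of 108 DMRs (50%) were higher in MMS in genes under 10 kb, 194 of 307 (63.2%) in genes of 10 to 50 kb, 94 of 162 (58.0%) in genes of 50 to 100 kb and 171 of 260 (65.8%) in genes over 100 kb, beside 62.4% of all autosomal DMRs. These shares were not tested either. A DMR in AC124518.1 was centred in a lncRNA promoter 116220 bp from the nearest start of Nr3c1, the glucocorticoid receptor gene, with means of 1.93 in control and 4.29 in MMS. It was named after its values were seen, and regions on these chromosomes and in these length classes are not replicates of a condition.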
